A study of Macaca mulatta with 10 samples.

Results

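DLK1, THY1, PDGFRA, PDGFRB, TCF21, NR2F1, NR2F2, LIFR and ENG are 9 genes used to mark fetal Leydig cells and the stromal progenitors from which steroid-making Leydig cells arise. They were chosen by name, and each was found at 1 locus among the 26813 loci, and 13643 distinct gene symbols, counted in testis libraries from 10 prepubertal rhesus monkeys (Macaca mulatta, labelled juvenile). All animals were wild type, and the right testis of each was divided, frozen and extracted for stranded total RNA sequencing. The groups had received pulses of vehicle (3 animals) or of the pituitary gonadotropins FSH and LH together for 48 h (3 animals) or 96 h (4 animals). Ages in the vehicle group were 24 months for TP07, 14 for TP09 and 15 for TP11. Ages in the 48 h group were 22 months for TP08, 14 for TP10 and 15 for TP12. The 96 h animals TP15, TP16, TP17 and TP18 were all 14 months old. How long vehicle was given was not given in the sources used here. Animal numbers of the 96 h group do not interleave with those of the other groups, so any difference between rounds of animals and the effect of 96 h cannot be told apart. The study was made to follow gene expression while undifferentiated spermatogonia enter differentiation.

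Leydig cells lie between the seminiferous tubules and make testosterone when LH binds its receptor. In the fetus and in the juvenile testis, spindle-shaped stromal cells of the interstitium act as their reserve, and these cells are recognised by surface proteins rather than by steroid enzymes. DLK1 is a membrane protein related to the Notch ligands, THY1 is a glycolipid-anchored surface protein, and PDGFRA and PDGFRB are receptor tyrosine kinases for platelet-derived growth factors. LIFR pairs with IL6ST to receive leukaemia inhibitory factor, and ENG (endoglin) is a co-receptor for ligands of the TGF-beta family. NR2F1 and NR2F2 are orphan nuclear receptors, and TCF21 is a basic helix-loop-helix transcription factor of mesenchymal progenitors. None of the 9 genes belongs to a single cell type. ENG is also a gene of endothelium, PDGFRB of pericytes and THY1 of other fibroblasts. In RNA from a whole organ, fewer cells of a type and less RNA per cell cannot be told apart.

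All levels are CPM, read counts as a share of the library total, after TMM scaling, which adjusts for differences in library composition. Library totals ran from 21824233 to 30375928 counts, and the lowest total makes 3 counts equal to 0.137 CPM, far under the level of any of the 9 genes. A gene is said to have risen or fallen where edgeR's quasi-likelihood test gave a Benjamini-Hochberg adjusted p below 0.05 over all loci. Each library came from a separate animal, so the test set group differences against the spread between animals, with age left out of the fit.

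At 48 h, DLK1 and THY1 rose, LIFR fell and 6 of the 9 genes did not pass the test. Over all loci 8.53% rose and 3.67% fell. The THY1 and LIFR calls each held in 17 of 22 alternative analyses. At 96 h, DLK1, THY1, PDGFRA and PDGFRB rose, 5 did not pass, and 0 fell in edgeR, exactTest or DESeq2. Over all loci 10.6% rose and 6.89% fell in edgeR. The PDGFRA call held in 7 of 22 alternatives and that of PDGFRB in 14. Between 96 h and 48 h 0 of the 9 passed edgeR's test, where 0.817% of loci were higher and 0.25% lower. DLK1 had reached its higher level by 48 h, whereas the vehicle and 48 h libraries of PDGFRA overlapped. TCF21, NR2F1, NR2F2 and ENG passed in none of the 3 comparisons.

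**Figure D1:**
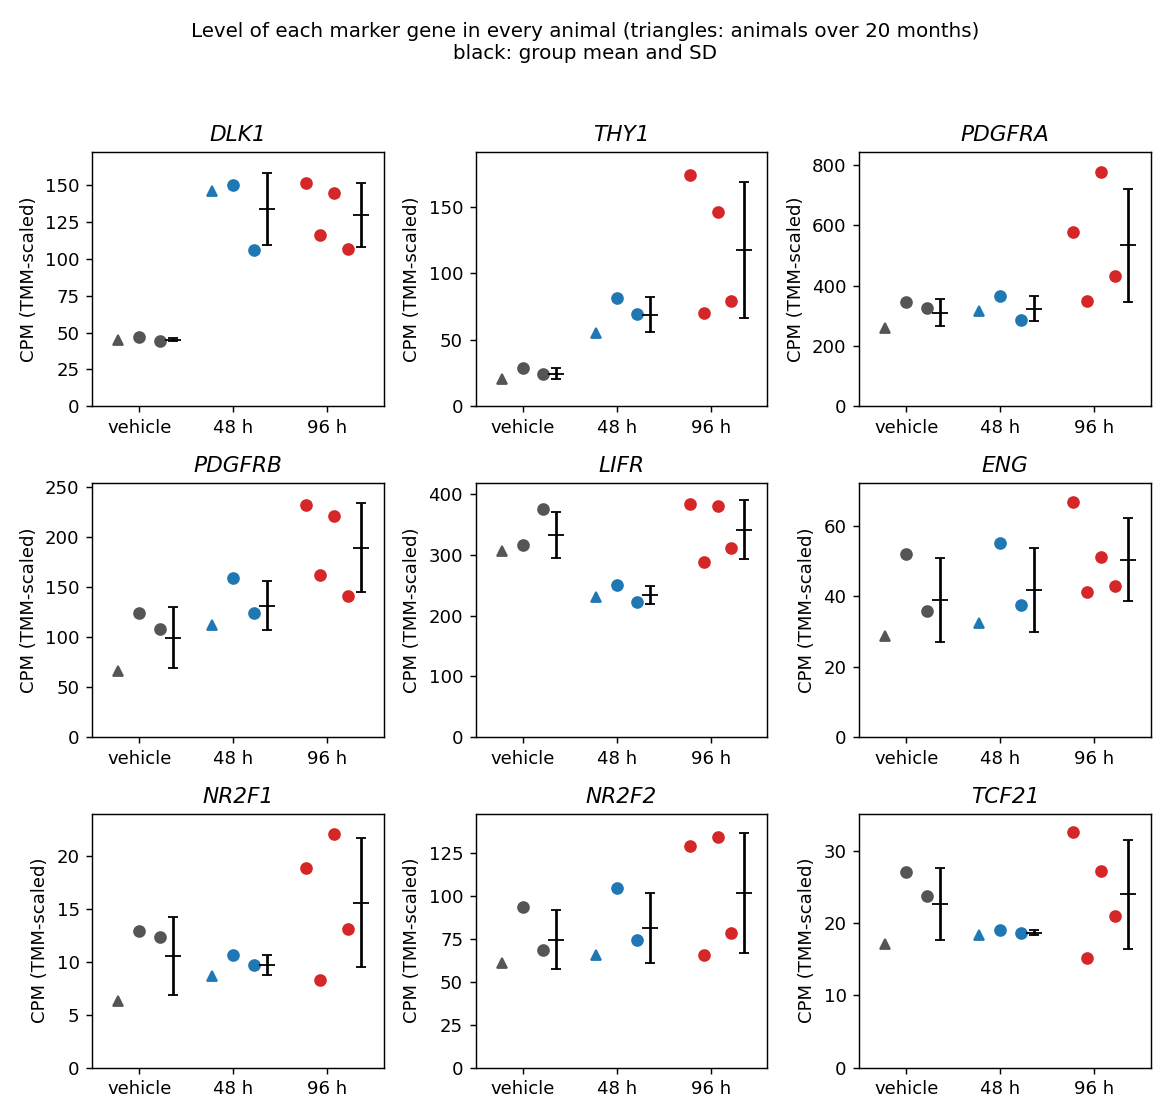
TMM-scaled CPM (vertical axes, starting at 0) of the 9 genes in every animal by group. Each point is 1 animal, triangles mark the 2 animals over 20 months, and black bars give the group mean and SD. DLK1 and THY1 separate vehicle from both gonadotropin groups, and the 96 h libraries are spread in pairs for most genes.

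DLK1 (chromosome 7, 163053195 to 163061713 on rheMac8, plus strand) had 44.9, 46.7 and 44.2 CPM in the vehicle animals TP07, TP09 and TP11. The 48 h animals TP08, TP10 and TP12 had 146, 150.2 and 106 CPM. The 96 h animals TP15, TP16, TP17 and TP18 had 151, 117, 144.5 and 107 CPM. Every gonadotropin library stood above every vehicle library, and the vehicle animals differed little among themselves although their ages ran from 14 to 24 months. The mean rose 2.96-fold, from 45.3 ± 1.30 CPM in vehicle (SD, n = 3) to 134 ± 24.4 CPM at 48 h (n = 3), with log2 fold change 1.57 ± 0.16 (± SE throughout; adjusted p = 0.00049 in edgeR). At 96 h it was 130 ± 21.6 CPM (n = 4), with log2 fold change 1.52 ± 0.15 (adjusted p = 0.000259 in edgeR). The 96 h and 48 h libraries overlapped, with a log2 fold change of -0.048 ± 0.14 between them (adjusted p = 0.873 in edgeR). DLK1 passed against vehicle, at 48 h and at 96 h, under each of the 22 alternatives tried, with log2 fold changes of 1.44 to 1.71 at 48 h and 1.31 to 1.60 at 96 h. The authors' deposited table lists FDR values of 2.03e-13 at 48 h and 2.86e-14 at 96 h for this gene.

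THY1 (chromosome 14, 112269447 to 112274931, minus strand) had 20.2, 29.0 and 24.6 CPM in TP07, TP09 and TP11. After 48 h, TP08, TP10 and TP12 had 55.1, 81.8 and 69.8 CPM. At 96 h the values were 174, 70.04, 146 and 79.3 CPM in TP15, TP16, TP17 and TP18. Again no gonadotropin library overlapped with vehicle. At 96 h the animals TP15 and TP17 stood well above TP16 and TP18, which lay within the range of the 48 h animals. The mean rose 2.80-fold, from 24.6 ± 4.39 CPM in vehicle to 68.9 ± 13.4 CPM at 48 h, with log2 fold change 1.49 ± 0.34 (adjusted p = 0.0205 in edgeR). At 96 h it was 118 ± 50.9 CPM, 4.77-fold the vehicle mean, with log2 fold change 2.25 ± 0.33 (adjusted p = 0.00269 in edgeR). The step from 48 h to 96 h did not pass, with log2 fold change 0.77 ± 0.31 (adjusted p = 0.21 in edgeR). The rise at 48 h was 1.36 without TP07 (adjusted p = 0.067 in edgeR), 1.34 without TP10 (0.0598), 1.48 without TP11 (0.0667) and 1.48 without TP12 (0.0554) on the log2 scale, so that omission of any of these animals ended the call. The rise at 96 h passed under all 22 alternatives.

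PDGFRA (chromosome 5, 80386789 to 80452558, minus strand), the receptor that marks stem and progenitor Leydig cells, had 261, 347 and 325 CPM in TP07, TP09 and TP11. At 48 h, TP08, TP10 and TP12 had 316, 367.5 and 286 CPM. After 96 h, in the order TP15, TP16, TP17 and TP18, it had 578, 348, 777 and 434 CPM. Vehicle and 48 h libraries overlapped, and the lowest 96 h library, TP16, stood barely above the highest vehicle library, TP09. The mean was 311 ± 44.7 CPM in vehicle and 323 ± 41.3 CPM at 48 h, with log2 fold change 0.057 ± 0.25 (adjusted p = 0.907 in edgeR). This value changed sign to -0.071 under upper-quartile scaling. At 96 h the mean was 534 ± 188 CPM, a 1.72-fold rise with a log2 fold change of 0.78 ± 0.24 and an adjusted p just inside the threshold (adjusted p = 0.0499 in edgeR). That call was lost in 15 of the 22 alternatives, which moved the log2 fold change between 0.34 and 0.93 and the adjusted p up to 0.301. Among them were upper-quartile scaling (log2 fold change 0.62, adjusted p = 0.0749 in edgeR) and omission of any 1 animal other than TP16 and TP18. Omission of 1 animal gave log2 fold changes from 0.55 without TP17 (adjusted p = 0.0859 in edgeR) to 0.87 without TP09 (0.079) among those that ended the call, and the largest adjusted p was 0.162, without TP07.

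PDGFRB (chromosome 6, 148249131 to 148290971, minus strand), the receptor of mural and other mesenchymal cells, had 65.6, 124 and 108 CPM in TP07, TP09 and TP11. In the 48 h group TP08, TP10 and TP12 had 112, 158.5 and 123.5 CPM. In TP15, TP16, TP17 and TP18, the 96 h group, it had 232, 161.5, 221 and 141 CPM. The 3 groups formed a ladder of means in which each 48 h library overlapped with a neighbouring group, while vehicle and 96 h did not overlap. The mean was 99.2 ± 30.2 CPM in vehicle and 131 ± 24.4 CPM at 48 h, with log2 fold change 0.40 ± 0.26 (adjusted p = 0.337 in edgeR). It rose 1.9-fold to 189 ± 44.4 CPM at 96 h, with log2 fold change 0.93 ± 0.24 (adjusted p = 0.0291 in edgeR). The call at 96 h was lost without TP07 (0.70, adjusted p = 0.0788 in edgeR), TP11 (0.99, 0.0683), TP15 (0.81, 0.0639) or TP17 (0.84, 0.07). It was also lost when age class (14 months, 15 months or older than 20) entered as a block, where the log2 fold change was 0.65 (adjusted p = 0.149 in edgeR).

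LIFR (chromosome 6, 38982398 to 39059071, minus strand) was the single gene of the set to fall. It had 306, 316 and 375.5 CPM in TP07, TP09 and TP11. In TP08, TP10 and TP12, the 48 h group, it had 230.2, 251 and 222 CPM. Values at 96 h, TP15 to TP18 in order, were 385, 289, 381 and 312 CPM. The 48 h libraries thus lay below all 7 others, and vehicle and 96 h overlapped. The mean fell from 333 ± 37.3 CPM in vehicle to 234 ± 14.9 CPM at 48 h, with log2 fold change -0.51 ± 0.13 (adjusted p = 0.0258 in edgeR). At 96 h it was 342 ± 48.6 CPM, with a log2 fold change of 0.038 ± 0.12 against vehicle (adjusted p = 0.847 in edgeR). The 96 h libraries were higher than those at 48 h without overlap, yet the log2 fold change of 0.54 ± 0.12 did not pass (adjusted p = 0.0617 in edgeR). That difference passed with exactTest (adjusted p = 0.0126), DESeq2 (adjusted p = 0.00292) and a filter on mean CPM of at least 5 (adjusted p = 0.0407). It also passed without TP16 (0.61, adjusted p = 0.038 in edgeR), and the authors' deposited table lists an FDR of 0.0288 for it. The fall at 48 h was lost without TP08 (-0.49, adjusted p = 0.0903 in edgeR), TP09 (-0.54, 0.0563), TP11 (-0.41, 0.0996) or TP12 (-0.47, 0.0891).

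ENG (chromosome 15, 11072508 to 11084050, plus strand) did not change detectably. Its mean was 38.9 ± 11.9 CPM in vehicle, 41.7 ± 12.0 CPM at 48 h and 50.5 ± 11.8 CPM at 96 h. The log2 fold change was 0.10 ± 0.27 at 48 h (adjusted p = 0.84 in edgeR) and 0.38 ± 0.25 at 96 h (adjusted p = 0.319 in edgeR). All 3 groups overlapped, from 28.8 CPM in TP07 to 66.9 CPM in TP15.

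The 3 transcription factors likewise overlapped between groups. TCF21 (chromosome 4, 133545538 to 133551996, minus strand) had 22.6 ± 5.03 CPM in vehicle, 18.7 ± 0.355 CPM at 48 h and 24.0 ± 7.54 CPM at 96 h. Its 48 h animals lay within 18.4 to 19.05 CPM, inside the vehicle range of 17.1 to 27.0 CPM. NR2F1 (chromosome 6, 90540902 to 90552672, plus strand) had 10.55 ± 3.66, 9.68 ± 0.971 and 15.6 ± 6.09 CPM in vehicle, at 48 h and at 96 h, and ran from 6.34 CPM in TP07 to 22.1 CPM in TP17. NR2F2 (chromosome 7, 74723458 to 74738859, plus strand), its paralog, had 74.5 ± 17.2, 81.5 ± 20.5 and 102 ± 35.0 CPM in the same order, from 61.2 CPM in TP07 to 134.5 CPM in TP17. At 48 h the log2 fold changes against vehicle were -0.28 ± 0.25 for TCF21, -0.12 ± 0.35 for NR2F1 and 0.13 ± 0.30 for NR2F2, with 0 of the 3 past the threshold. Their log2 fold changes at 96 h against vehicle were 0.083 ± 0.23 for TCF21, 0.56 ± 0.33 for NR2F1 and 0.45 ± 0.28 for NR2F2 (adjusted p = 0.828, 0.256 and 0.283 in edgeR). For NR2F2, 24.48% of the exonic length (1506 bases) is shared with a locus on the opposite strand that joins LOC106999306 and LOC106999307. That locus had 248 ± 78.6 CPM in vehicle and 271 ± 73.95 CPM at 96 h and did not pass (adjusted p = 0.798 in edgeR). The strand setting of the counting was not given in the sources used here, so reads from these loci may not have been told apart.

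**Figure D2:**
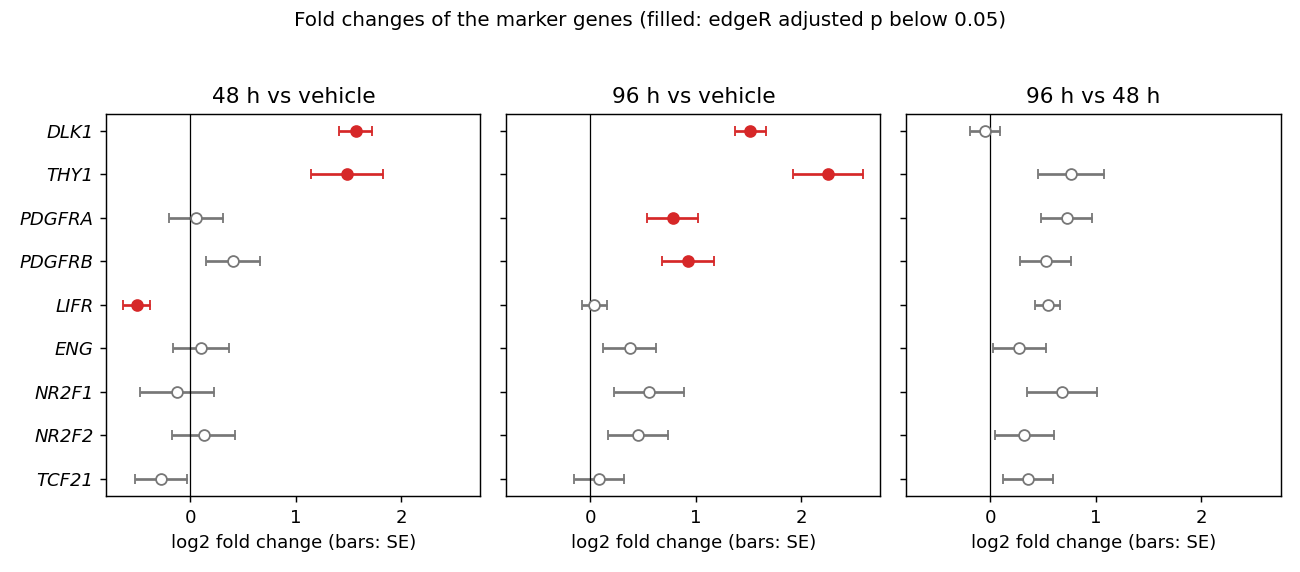
Log2 fold change (horizontal axis) with its SE for each of the 9 genes in the 3 comparisons, filled where edgeR's adjusted p was below 0.05. DLK1 and THY1 lie far to the right of 0 at both times, PDGFRA and PDGFRB are filled at 96 h alone, and LIFR lies left of 0 at 48 h alone.

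Set against all loci, 2 of 9 markers rose at 48 h where 8.53% of loci did, and 1 of 9 fell where 3.67% did. By lack of overlap between the libraries the same 2 were higher and 1 lower, against backgrounds of 18.1% higher and 18.0% lower. Among the 13643 symbols, 1997 rose and 443 fell at 48 h. Without overlap 3955 of these symbols were higher and 1777 lower. At 96 h 4 of 9 rose where 10.6% of loci did, and 0 of 9 fell where 6.89% did. The same 4 were higher without overlap (15.9% of loci), and 0 were lower (14.9%). Of the 13643 symbols, 2355 rose and 917 fell at 96 h, and 3375 were higher and 1749 lower without overlap. Between 96 h and 48 h, 0 of 9 were called higher (background 0.817%) or lower (0.25%). There 3 of the 9, THY1, PDGFRA and LIFR, had an unadjusted p below 0.05, while exactTest called 1 and DESeq2 called 2. LIFR was the 1 gene of 9 higher without overlap (7.93% of loci), and 0 were lower (8.61%). The median log2 fold change of the 9 genes was 0.10 at 48 h, 0.56 at 96 h and 0.52 between the times. Over all loci the medians were -0.0705, -0.012 and 0.021. Over the 13643 symbols they were 0.077, 0.0794 and -0.0232, so the 48 h median of the 9 genes lay near that of symbols. The comparisons with vehicle share the vehicle libraries, so their counts are not independent of each other. Upper-quartile scaling moved the median of all loci to -0.20 at 48 h and -0.16 at 96 h. Under it DLK1 and THY1 still rose at both times, PDGFRB rose at 96 h and LIFR fell at 48 h.

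Levels of different genes were compared only as CPM per kilobase of exon. In vehicle PDGFRA led with 43.8 ± 6.30, followed by DLK1 with 27.9 ± 0.801 and PDGFRB with 17.3 ± 5.26. NR2F1 was last with 2.43 ± 0.842. PDGFRA and DLK1 did not overlap as neighbours in this order, nor did DLK1 and PDGFRB, NR2F2 and TCF21, or TCF21 and NR2F1. The neighbours from PDGFRB through ENG, LIFR and THY1 to NR2F2 (12.1 ± 2.79) overlapped. At 48 h DLK1, at 82.8 ± 15.0, stood first and clear of PDGFRA at 45.5 CPM per kilobase. At 96 h the libraries of DLK1 (80.1 ± 13.3), PDGFRA (75.2 ± 26.4) and THY1 (58.2 ± 25.2) overlapped in turn. Among all symbols ranked by this measure, THY1 moved from the 69.8 percentile in vehicle to 88.9 at 48 h and 94.8 at 96 h. DLK1 moved from 88.7 to 96.5 at 48 h. LIFR has 1 annotated model much longer than its others, so its value of 15.2 ± 1.70 in vehicle depends on the length used.

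**Figure D3:**
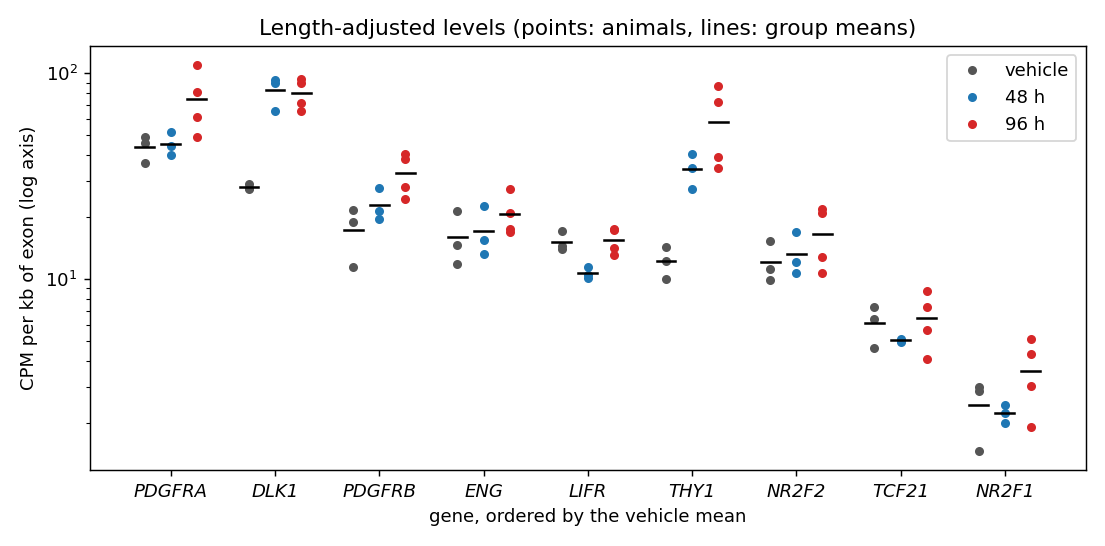
CPM per kilobase of exon (log axis) of the 9 genes in each animal, ordered by the vehicle mean, with lines at the group means. The animals span from 1.46 for NR2F1 in TP07 to 109 for PDGFRA in TP17, and the mean of DLK1 overtakes that of PDGFRA at 48 h.

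Ratios within a library compare pairs of related genes. PDGFRA exceeded PDGFRB per kilobase by 2.63 ± 0.507 times in vehicle, 2.01 ± 0.241 times at 48 h and 2.27 ± 0.489 times at 96 h. NR2F2 exceeded NR2F1 by 5.28 ± 1.46, 5.88 ± 0.910 and 4.74 ± 0.631 times in the same order. The animals of the 3 groups overlapped in both ratios. In PDGFRB over THY1 the vehicle animals stood apart, at 1.4 ± 0.223 in vehicle, 0.673 ± 0.0459 at 48 h and 0.609 ± 0.150 at 96 h. LIFR over its partner IL6ST was 0.139 ± 0.0161 in vehicle, 0.101 ± 0.000674 at 48 h and 0.143 ± 0.0251 at 96 h. The size of this ratio depends on the exonic lengths used, 21954 bases for LIFR and 7513 for IL6ST, which were the same in every group. IL6ST itself had a log2 fold change of -0.0495 at 48 h (adjusted p = 0.785 in edgeR).

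The 9 genes varied together among animals of the same group. TP15 and TP17 stood above TP16 and TP18 in 9 of 9 genes, an arrangement found at 22.8% of all loci. Within 48 h TP10 was highest in 9 of 9 (37.3% of loci). Within vehicle TP09 was highest in 8 of 9 (34.7%) and TP07 lowest in 8 of 9 (34.5%). TP10 and TP09 were the 14-month animals of their groups, and TP07 was the oldest animal. The 9 genes are not independent of each other, and these shares are descriptions. TP15 and TP17 also had the lowest totals of the 10 libraries (21998786 and 21824233 counts) and the lowest TMM factors (0.939 and 0.905). The part of depth or library composition in their levels was not tested.

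**Figure D4:**
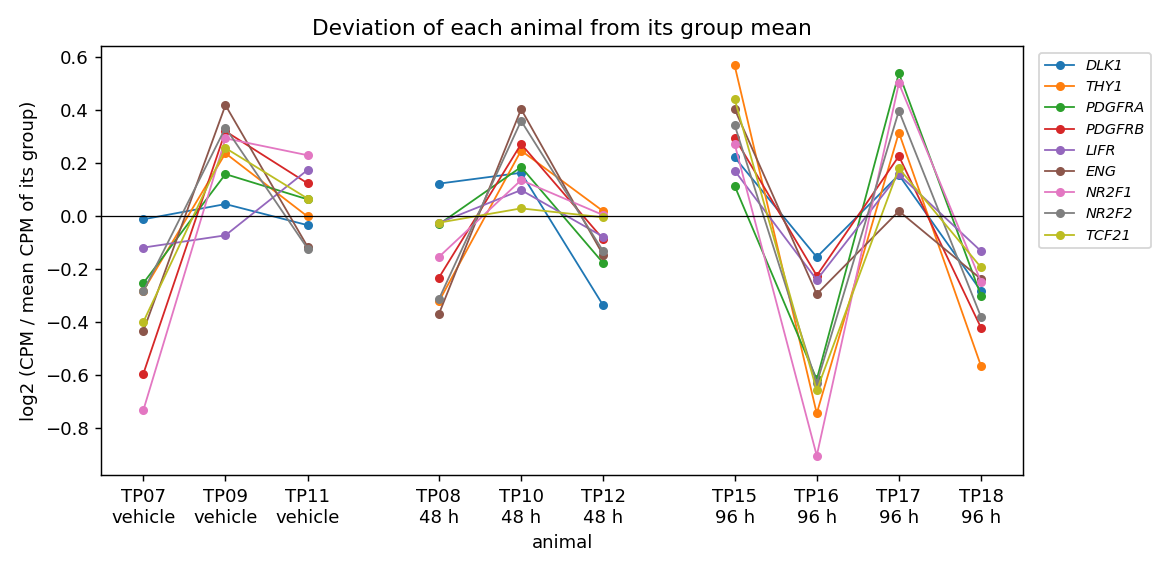
Deviation of each animal from the mean of its group (log2 of CPM over the group mean, vertical axis) for the 9 genes, with lines joining the animals of a group. In the 96 h group TP15 and TP17 lie above 0 and TP16 and TP18 below 0 for all 9 genes.

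A fit without TP15 and TP17, chosen after seeing the data, left 2 of the 4 rises at 96 h. These animals stood above TP16 and TP18 in 9 of 9 genes, so leaving them out had to lower the 96 h means. The lower values in that fit therefore do not test the rises. DLK1 then had a log2 fold change of 1.31 (adjusted p = 0.00231 in edgeR) and THY1 of 1.61 (adjusted p = 0.00327 in edgeR). PDGFRA was at 0.34 (adjusted p = 0.209 in edgeR) and PDGFRB at 0.61 (adjusted p = 0.183 in edgeR), both above 0 but not past the threshold. The median of the 9 genes at 96 h was then 0.12, against 0.56 with all animals. The calls at 48 h stayed at 2 higher and 1 lower in that fit.

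TP09 was the only vehicle animal aged 14 months, the age of the whole 96 h group. Taken within age class, DLK1 was higher at 48 h than in vehicle by 1.69 in the pair over 20 months, 1.68 at 14 months and 1.25 at 15 months (log2 CPM difference, 1 animal against 1). THY1 was higher by 1.42, 1.48 and 1.49 in the same pairs, and LIFR differed by -0.41, -0.33 and -0.76. PDGFRB was higher by 0.76 in the pair over 20 months and by 0.35 and 0.19 in the younger pairs. Against TP09 alone, the 4 animals at 96 h were higher by 1.18 to 1.69 for DLK1 and by 1.26 to 2.57 for THY1. For PDGFRA that range began at 0.0058 and ended at 1.16, and for PDGFRB it ran from 0.19 to 0.90. Without both animals over 20 months, DLK1 was the gene that still passed at 48 h, and DLK1 and THY1 passed at 96 h. A linear term for age passed for 0 of 9 genes and 0 of 26813 loci in edgeR (unadjusted p below 0.05 at 2 of 9 genes and 2133 loci). The genes at that unadjusted level were PDGFRB, at -0.072 per month on the log2 scale (adjusted p = 0.625 in edgeR), and ENG, at -0.0705 (adjusted p = 0.625 in edgeR).

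Genes that supply or relay the signals of these receptors were read from lists chosen by function. As background to the list counts, 8.53% of all loci rose and 3.67% fell at 48 h. At 96 h 10.6% of all loci rose and 6.89% fell. The list genes are all named symbols. Of the 13643 symbols, 1997 rose and 443 fell at 48 h, and 2355 rose and 917 fell at 96 h. Rises thus took a larger share of the symbols than of all loci. Of 5 PDGF family genes, the ligands and the receptor-like gene PDGFRL, 1 rose at 48 h. At 96 h 0 passed in edgeR (0 with an unadjusted p below 0.05), exactTest or DESeq2. The gene that rose was PDGFD, a ligand of PDGFRB, with 53.8, 53.7 and 41.3 CPM in TP07, TP09 and TP11. In the 48 h group TP08, TP10 and TP12 had 127, 76.0 and 88.3 CPM of PDGFD, all above vehicle. Its log2 fold change was 0.97 ± 0.21 (adjusted p = 0.0139 in edgeR), and at 96 h the mean was 63.2 ± 11.8 CPM against 49.6 ± 7.22 CPM (adjusted p = 0.232 in edgeR). The PDGFD call was lost without TP11 (0.85, adjusted p = 0.054 in edgeR) or without both animals over 20 months. PDGFD was called at 48 h and the receptors PDGFRA and PDGFRB at 96 h, in comparisons that share the vehicle animals. Between 96 h and 48 h PDGFD, PDGFRA and PDGFRB did not pass (adjusted p = 0.133, 0.153 and 0.248 in edgeR). DESeq2 called PDGFD lower and PDGFRA higher there (adjusted p = 0.0427 and 0.0429). An order in time between ligand and receptors was not tested.

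Among 14 measured genes of the LIF family and its signal relay, 0 passed edgeR's test at 48 h (3 with an unadjusted p below 0.05, 0 by exactTest, 1 by DESeq2) and 1 rose at 96 h. This was OSMR, the oncostatin M receptor, which shares IL6ST with LIFR. OSMR was 76.4 ± 9.93 CPM at 96 h against 52.8 ± 6.28 CPM in vehicle, with log2 fold change 0.53 ± 0.13 (adjusted p = 0.0176 in edgeR). It was not called without TP07 (0.50, adjusted p = 0.0693 in edgeR), without TP09 (0.47, 0.0631), without TP15 and TP17, without both animals over 20 months or with age class as a block. STAT3 and JAK1, which carry the signal inside the cell, missed the threshold, at log2 fold changes of 0.38 and -0.19 at 96 h.

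Among 14 measured partners and targets of endoglin, 0 passed edgeR's test at 48 h (4 with an unadjusted p below 0.05, 1 by exactTest, 1 by DESeq2) and 4 rose at 96 h with 0 falls. Of the 14, 1 rose at 96 h without TP15 and TP17 or without both animals over 20 months, and 0 with age class as a block, where the median was 0.039. ACVRL1, the type I receptor that endoglin serves, was 21.75 ± 7.17 CPM at 96 h against 8.33 ± 1.38 CPM in vehicle. Its log2 fold change was 1.38 ± 0.27 (adjusted p = 0.00694 in edgeR), while that of ENG itself did not pass. ACVRL1 kept its call in all alternatives except that with age class as a block. The type II receptor BMPR2, the ligand TGFB3 and the target ID1 had log2 fold changes of 0.61 ± 0.16, 0.69 ± 0.19 and 0.65 ± 0.20 (adjusted p = 0.0267, 0.0319 and 0.0422 in edgeR). Each of these 3 calls was lost without TP07 (adjusted p = 0.08, 0.0997 and 0.0856 in edgeR), without TP11 (0.103, 0.0944 and 0.146) or without TP17 (0.0627, 0.0738 and 0.0571). The number of the 14 that rose was 1 without TP07, TP11 or TP17 and 2 without TP09, TP15 or TP16, and the median of the 14 genes at 96 h was 0.22. TGFB1, TGFB2, GDF2 and BMP10 were not analysed here.

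DLK1 sits in an imprinted cluster on chromosome 7 whose other protein-coding genes include BEGAIN, RTL1 and DIO3. None of these 3 passed in edgeR at 48 h or 96 h, where 1 of 3 had an unadjusted p below 0.05 each time. At 48 h exactTest and DESeq2 each called 1 lower, and at 96 h exactTest called 0 and DESeq2 1 higher. DIO3, which inactivates thyroid hormone, was 6.46 ± 2.85 CPM in vehicle, 1.91 ± 0.886 CPM at 48 h and 4.0 ± 2.21 CPM at 96 h (adjusted p = 0.0945 in edgeR at 48 h and 0.41 at 96 h). RTL1 was 4.69 ± 1.32, 5.04 ± 1.65 and 9.36 ± 4.42 CPM in the same order (adjusted p = 0.886 at 48 h and 0.0877 at 96 h in edgeR). RTL1 was the gene called higher at 96 h by DESeq2 (log2 fold change 1.012, adjusted p = 0.0319), and it also passed without TP18 (1.21, adjusted p = 0.0378 in edgeR). DIO3 was the gene called lower at 48 h, by exactTest (log2 fold change -1.76, adjusted p = 0.0433) and DESeq2 (-1.73, 0.0224). That fall also passed with the 2 groups alone (adjusted p = 0.0388 in edgeR) and without TP16 (0.0179). The noncoding genes MEG3, MEG8 and MEG9 were not analysed here.

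Of 16 other markers of stromal and Leydig progenitors, 1 rose at 48 h and 6 at 96 h, with 0 falls. Over all loci 8.53% rose at 48 h and 10.6% at 96 h. Of the 13643 symbols, a larger share rose, 1997 at 48 h and 2355 at 96 h. The median log2 fold changes of the 16 genes were 0.24 and 0.63. Without TP15 and TP17, 3 rose at 96 h and the median was 0.25. Without both animals over 20 months 0 rose at 48 h and 2 at 96 h, and with age class as a block 1 and 2 rose. NGFR, the low-affinity nerve growth factor receptor, was 4.30 ± 1.69 CPM in vehicle, 14.5 ± 3.86 CPM at 48 h and 17.2 ± 4.49 CPM at 96 h. It rose at both times, by log2 fold changes of 1.76 ± 0.34 and 2.0 ± 0.33 (adjusted p = 0.00789 and 0.00312 in edgeR), and the call at 48 h was lost without both animals over 20 months (1.46, adjusted p = 0.0619 in edgeR). MME, the surface peptidase CD10, had 28.4, 39.5 and 47.7 CPM in TP07, TP09 and TP11. It had 56.1, 38.2 and 46.8 CPM in the 48 h animals TP08, TP10 and TP12. The 96 h animals TP15, TP16, TP17 and TP18 had 117, 76.1, 117.5 and 115 CPM of MME, all above the other groups. MME rose by 1.46 ± 0.21 on the log2 scale at 96 h (adjusted p = 0.00199 in edgeR), a call that held under all 22 alternatives. ITGAV, an integrin subunit, rose at 96 h by 0.81 ± 0.18 on the log2 scale (adjusted p = 0.0123 in edgeR). That call was lost without TP07 (0.73, adjusted p = 0.0562 in edgeR). Of the 16 genes, 2 rose at 96 h without TP07, and 4 to 7 on omission of any other animal. WT1, NES and GLI1 missed the threshold at 96 h, at log2 fold changes of -0.048, 0.55 and 0.65.

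**Figure D5:**
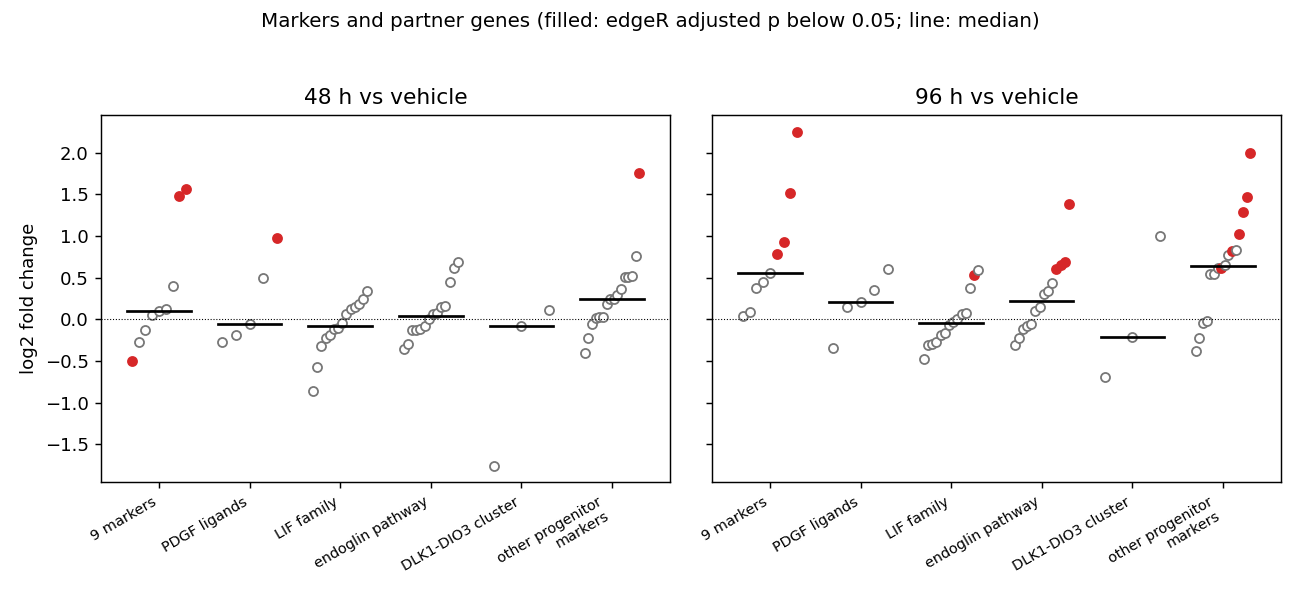
Log2 fold changes (vertical axis) against vehicle at 48 h (left) and 96 h (right) of the 9 markers and of the measured genes of 5 related lists, filled where edgeR's adjusted p was below 0.05, with lines at the medians. The median of the 16 other progenitor markers is 0.24 at 48 h and 0.63 at 96 h, close to that of the 9 markers at 96 h (0.56).

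Markers of other cell types of the testis were read beside these values. Again the shares over all loci were 8.53% higher and 3.67% lower at 48 h, and 10.6% higher and 6.89% lower at 96 h. Of the 13643 symbols, 1997 were higher and 443 lower at 48 h, and 2355 higher and 917 lower at 96 h. Of 8 steroidogenic Leydig genes 7 rose at 48 h and 6 at 96 h, and their summed level was 293 to 442 CPM in vehicle, 1866 to 2271 CPM at 48 h and 1384 to 1705 CPM at 96 h. The largest part of that sum was INSL3, with 139.5 ± 80.6 CPM in vehicle, 965 ± 94.7 CPM at 48 h and 687 ± 135.5 CPM at 96 h. STAR, which brings cholesterol into mitochondria, was 21.6 ± 10.6, 419 ± 122 and 314 ± 124 CPM in that order. CYP17A1 was 20.4 ± 4.79, 229 ± 39.8 and 206 ± 32.0 CPM. Of 11 endothelial genes 0 passed at 48 h in edgeR (0 also with an unadjusted p below 0.05), exactTest or DESeq2. At 96 h FLT1 fell (log2 fold change -0.58, adjusted p = 0.0142 in edgeR), and it was not called without TP07 (adjusted p = 0.0504 in edgeR), TP11 (0.054) or the pair TP15 and TP17. The endothelial sum was 102 to 141 CPM in vehicle, 99.6 to 175 CPM at 48 h and 79.1 to 165 CPM at 96 h. Of 7 pericyte genes 0 passed at 48 h in edgeR (1 with an unadjusted p below 0.05), exactTest or DESeq2. At 96 h CSPG4 rose (log2 fold change 1.33, adjusted p = 0.0343 in edgeR), a call lost without TP07 (adjusted p = 0.0954 in edgeR), TP09 (0.0699), TP11 (0.116), TP15 (0.0712) or TP17 (0.0808). The pericyte sum was 84.7 to 132 CPM, 87.7 to 144 CPM and 106 to 177 CPM in the 3 groups.

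Of 6 peritubular myoid genes 3 rose at 48 h and 4 at 96 h (1 without TP07, TP11, TP15 or TP17), with sums of 403 to 438 CPM in vehicle, 653 to 966 CPM at 48 h and 557 to 1205 CPM at 96 h. Among them ACTA2, smooth muscle actin, was 18.9 ± 6.26, 128 ± 28.2 and 97.9 ± 33.5 CPM in the 3 groups. The largest part of the sum was MYH11, with 286 ± 15.4, 386.5 ± 120 and 585 ± 263 CPM in the same order. Of 7 macrophage genes 0 passed edgeR's test at 48 h (2 with an unadjusted p below 0.05, 1 by exactTest, 2 by DESeq2) and AIF1, CD14 and C1QA rose at 96 h. The number of macrophage genes that rose was 0 without TP07, TP11 or TP17, and 1 without TP09 or TP15. The macrophage sum was 83.6 to 172 CPM, 131 to 203 CPM and 162 to 311 CPM. Of 4 measured T cell list genes 0 passed at 48 h in edgeR (0 also with an unadjusted p below 0.05), exactTest or DESeq2. PTPRC, which all leukocytes carry, rose at 96 h (70.9 against 45.4 CPM), and the sum, most of it PTPRC, was 39.6 to 58.7, 54.0 to 55.7 and 71.1 to 78.1 CPM. The T cell genes CD3D, CD2 and CD8A did not pass at 96 h, at log2 fold changes of -0.68, -0.38 and -0.48. Of 4 Schwann cell genes 1 rose at 48 h and at 96 h, and the defining factor SOX10 stayed between 0.557 and 2.70 CPM in the 10 libraries. Of 7 Sertoli cell genes 2 rose at 48 h and 3 at 96 h, and of 5 measured germ cell genes 2 fell at 48 h and 5 at 96 h. The last count was 2 without TP07 or TP11 and 1 without TP15 and TP17, and that of Sertoli genes was 1 without TP07, TP09, TP11, TP12, TP15 or TP16. With age class as a block the calls at 96 h were 1 of 6 peritubular genes higher, 0 of 7 macrophage, 0 of 7 pericyte and 0 of 11 endothelial genes, and 1 of 5 germ cell genes lower. No gene of these lists was at 0 counts in any library.

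The animals high in the 9 markers were high in several of these lists. In peritubular genes, a sum whose largest part was MYH11, TP15 and TP17 stood highest at 96 h. They had 1205 and 1050 CPM against 556.5 in TP16 and 669.5 in TP18. In the same order they had 302 and 311 CPM of macrophage genes against 161.5 and 245. For endothelial genes they had 165 and 150 CPM against 79.1 and 117. For pericyte genes they had 176.5 and 149 CPM against 105.5 and 126. The other progenitor markers summed to 3591 and 4095 CPM against 2048 and 2627, and Schwann cell genes to 151 and 148 against 137 and 129. In the sums of T cell, Sertoli and germ cell genes, TP15 and TP17 did not both stand above TP16 and TP18. The steroidogenic sum, whose largest part was INSL3, did not share this order either. It was 1705 and 1509 CPM in TP15 and TP17 against 1691 and 1384 CPM in TP16 and TP18. The part of peritubular, macrophage, endothelial, pericyte or Schwann cell RNA in the 96 h values of the 9 genes was not tested.

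Genes with the most similar profile were sought by the root mean square difference of log2 CPM (with a pseudocount of 0.5), each gene centred on its own mean over the 10 libraries, among 13388 symbols. For DLK1 these were TUBB, IGFBP4 and TIMP1, at 0.163 to 0.173, against a spread of DLK1 itself of 0.718. TIMP1 was 68.5 ± 5.94 CPM in vehicle, 220 ± 13.9 CPM at 48 h and 179 ± 40.7 CPM at 96 h. For THY1 they were KAZALD1, CRISPLD2 and GXYLT2 (0.207 to 0.291 against 0.975). For PDGFRA they were TSHZ3, GLT8D2 and SMOC2 (0.105 to 0.142 against 0.457), and for PDGFRB NAV1, LAMA2 and BMP1 (0.104 to 0.106 against 0.501). LIFR was nearest to FOXN3, LRIG3 and FAM102B (0.102 to 0.121 against 0.276). ENG was near to IKZF4 and ZBED3 (0.104 and 0.109 against 0.355), and TCF21 to DHRS3, TRIM22 and LRRC3 (0.114 to 0.126 against 0.322). NR2F1 was nearest to LRRC17, FZD1 and TMEM47 (0.127 to 0.158 against 0.494). NR2F2 was nearest to NRP1, TGFBR2 and CLCF1 (0.0987 to 0.115 against 0.394).

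Within the set, DLK1 and THY1 were each other's nearest profile (0.459), as were PDGFRA and NR2F1 (0.209), TCF21 and LIFR (0.235) and NR2F2 and ENG (0.175). PDGFRB was nearest to PDGFRA (0.266). The distance between DLK1 and THY1 was larger than that to the nearest other symbol for either gene. All of these distances rest on the same 10 libraries and are descriptions.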

How the data were processed

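Total RNA libraries of 10 testes were analysed from the count table that the authors deposited. Per the submitters' processing notes, the genome was rheMac8 and the tools included TopHat2 2.1.1 with Bowtie2 2.2.8, cutadapt 1.9.1, HTSeq 0.6.1p1, Cufflinks 2.2.1 and edgeR. The deposited counts are whole numbers per locus. The deposited CPM values are counts scaled to library totals, and every kept locus had at least 1 such CPM in at least 3 libraries. The authors' deposited log2 fold changes and p-values were used only where named, and 1 deposited table of vehicle CPM was not used here. Positions are exon limits of the deposited transcript models on rheMac8. Symbols came from the table for 13335 genes and through RefSeq gene IDs (T2T-MMU8v2.0) for 308. Loci without a name (8161), with several symbols (1230) or with an identifier only (3171) stayed in the fit and stood for no symbol. A symbol at several loci was read at the locus with the highest mean count.

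Counts were fitted with edgeR 4.0.16 (R 4.3.3; TMM, robust glmQLFit, glmQLFTest) over all 10 libraries as 3 group means, with Benjamini-Hochberg adjustment over 26813 loci at 0.05. The filter of edgeR removed 0 loci. The SE was taken from the F statistic. Per-gene CPM are TMM-scaled, as mean ± SD over animals. Floors cover counting error only. Alternatives were RLE and upper-quartile scaling, no filter, a mean CPM of at least 5, exactTest, DESeq2 1.42.0, the compared groups alone, age as a covariate or block, loci summed by symbol, and omission of both animals over 20 months or of each animal. A fit without TP15 and TP17 and the age term itself were added after seeing the data. TP15 and TP17 were chosen because they were the higher 96 h animals for all 9 genes. Scripts were tested on simulated data. The 9 genes, the lists and the alternatives were chosen with earlier results of these data known. Named list genes were up to 4 called genes per list by smallest p, or 2 by highest CPM where none was called. A few genes this rule or the profile ranking would name are not reported here. Other genes named as values were picked after their values were seen. HSD3B2 may share reads with near-identical copies and counts toward the steroidogenic list only. No replicate pair agreed within sampling noise, so each library counts once. No sequence was used.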

Additional observations from a re-analysis of the deposited data

Results flagged for a closer look

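In the 96 h group the lowest library for MME was TP16 at 76.1 CPM, a gap to the other 3 animals that was large for a group of 4 by Dixon's criterion. The highest 96 h library for CYP11A1, a steroid enzyme, was TP17 at 179.8 CPM by the same criterion. Chance flags about 1 in 20 such groups. MME also had different effects at the 2 times: the 96 h effect exceeded the 48 h effect by 1.18 on the log2 scale (adjusted p = 0.0322 in edgeR), a call lost in 11 of 22 alternatives, among them omission of TP08, TP09, TP10, TP12, TP15, TP17 or TP18.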

How the results depend on the processing

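Of the 9 genes, those that rose at 48 h numbered 2 in all alternatives except without both animals over 20 months (1) and on omission of 1 animal (1 to 2), and those that fell numbered 1 except in the same cases (0, and 0 to 1). At 96 h the 4 rises became 2 with the 2 groups alone, with age class as a block, without both animals over 20 months and without TP15 and TP17, became 3 under upper-quartile scaling, a mean CPM of at least 5 and age as a covariate, and ran from 2 to 4 on omission of 1 animal. Between the times 1 gene was higher with a mean CPM of at least 5 or with exactTest, 2 with DESeq2 and 0 to 1 on omission of 1 animal. The cause of these shifts was not tested, beyond the smaller number of animals in those that leave animals out. Values that changed sign, given as log2 fold changes, were not called before or after. They had been as large as 0.60 in the fit with all animals (CSPG4 between the times). At 48 h these were PDGFRA under upper-quartile scaling (-0.071), mean CPM of at least 5 (-0.017), without both animals over 20 months (-0.0401) and on omission of 1 animal (-0.055 to 0.14). The others at 48 h were ENG (-0.026 under upper-quartile scaling; -0.15 to 0.37 on omission), NR2F1 (-0.39 to 0.049), NR2F2 (-0.091 to 0.33), RTL1 (-0.0215 under upper-quartile scaling, -0.0016 without both animals over 20 months, -0.18 to 0.33 on omission) and MME (-0.037 without both animals over 20 months).

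At 96 h TCF21 and LIFR changed sign under upper-quartile scaling (-0.076 and -0.12), mean CPM of at least 5 (-0.024 and -0.065), age as a covariate (-0.038 and -0.0077), without both animals over 20 months (-0.082 and -0.0185), without TP15 and TP17 (-0.32 and -0.14) and on omission of 1 animal (-0.101 to 0.24 and -0.025 to 0.13). TCF21 did so with age class as a block too (-0.054), as did ENG (-0.034), and NR2F2 without TP15 and TP17 (-0.041). Between the times DLK1 turned to 0.0175 without both animals over 20 months and ran from -0.19 to 0.042 on omission of 1 animal, where ID1 ran from -0.18 to 0.12. With age class as a block the values were -0.0215 for NR2F2, -0.14 for ENG, -0.16 for NGFR, -0.12 for AIF1 and -0.16 for CD14. Without TP15 and TP17 they were -0.056 for TCF21, -0.19 for NR2F2, -0.085 for TGFB3, -0.089 for NGFR, -0.0405 for CSPG4 and -0.21 for CD14. Of 198 values of the 9 genes per comparison, 177 at 48 h, 157 at 96 h and 185 between the times kept direction and side of the threshold. The groups share no replicate numbers, so pairs could not be taken by number, and the main fit was unpaired. Age class as a block matched animals by age instead. The lowest level of the 9 genes was that of NR2F1 in TP07, 192 counts or 6.34 CPM, and whether depth moved the calls was not tested.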
